A study of Mus musculus with 6 samples.

Results

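The circadian clock genes examined here were the 10 transcripts Arntl, Clock, Npas2, Per1, Per2, Per3, Cry1, Nr1d1, Nr1d2 and Dbp, chosen by symbol from the 34745 genes counted in each hepatocyte library. Their levels were compared among the 6 libraries of the study and between hepatocytes with and without Foxa2, a forkhead transcription factor of the hepatocyte. The hepatocytes came from male mice aged 12 weeks with liver fibrosis induced by carbon tetrachloride (CCl4), a hepatotoxin. Each received CCl4 for 4 weeks, with 2 injections a week of 0.25 ml/kg. All mice carried floxed Foxa2 alleles, which Cre recombinase deletes, and were given an AAV8 vector through the tail vein 2 weeks before the first CCl4 dose. The FOXA2f/f+CCl4 mice received AAV8-TBG-Control, and the FOXA2H-KO+CCl4 mice received AAV8-TBG-Cre, whose TBG promoter drives Cre in hepatocytes. Each group had 3 libraries, numbered 1, 2 and 4, and there was no group without CCl4, virus or floxed alleles. Mice were killed on the third day after their last injection, and the hour of the day is not given in the sources used here. Nothing in the labels states that each library came from a separate mouse, so the p-values measure the spread between these libraries.

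The clock is a transcriptional feedback loop that runs in nearly every cell and is strong in hepatocytes. ARNTL (BMAL1) pairs with CLOCK or NPAS2 at E-boxes and activates the Per, Cry, Nr1d and Dbp genes. PER and CRY proteins then inhibit that pair, and the nuclear receptors REV-ERBα (Nr1d1) and REV-ERBβ (Nr1d2) repress Arntl, Clock, Npas2 and Cry1 through ROR elements. In mouse liver, Nr1d1, Dbp and the Per transcripts therefore peak in the later part of the day and the early night, and Arntl, Clock, Npas2 and Cry1 peak about opposite to them.

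The promoters of 5 members are shown because they carry the letters through which members of the loop act on each other. Each runs 5′ to 3′ on the gene's strand from 250 bases before to 50 bases after a transcription start in RefSeq (GRCm38.p6), and capitals mark every match on either strand to an E-box (CACGTG), an E′-box (CACGTT), a D-box (TTANGTAA) or a ROR element (TNGGTCA).
Cry1, chr10:85185005-85185304, minus strand: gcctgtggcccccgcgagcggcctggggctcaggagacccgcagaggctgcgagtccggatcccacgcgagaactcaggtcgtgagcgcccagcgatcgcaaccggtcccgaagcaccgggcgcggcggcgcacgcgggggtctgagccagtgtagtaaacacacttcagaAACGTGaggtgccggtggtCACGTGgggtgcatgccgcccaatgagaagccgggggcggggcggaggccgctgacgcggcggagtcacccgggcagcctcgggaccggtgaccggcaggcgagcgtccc
Nr1d1, chr11:98775328-98775627, minus strand: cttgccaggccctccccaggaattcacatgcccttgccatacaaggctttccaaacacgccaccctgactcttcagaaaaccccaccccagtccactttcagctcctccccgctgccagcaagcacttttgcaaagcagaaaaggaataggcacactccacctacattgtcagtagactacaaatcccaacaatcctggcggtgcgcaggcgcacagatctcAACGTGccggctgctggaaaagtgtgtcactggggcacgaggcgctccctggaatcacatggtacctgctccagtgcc
Per1, chr11:69098699-69098998, plus strand: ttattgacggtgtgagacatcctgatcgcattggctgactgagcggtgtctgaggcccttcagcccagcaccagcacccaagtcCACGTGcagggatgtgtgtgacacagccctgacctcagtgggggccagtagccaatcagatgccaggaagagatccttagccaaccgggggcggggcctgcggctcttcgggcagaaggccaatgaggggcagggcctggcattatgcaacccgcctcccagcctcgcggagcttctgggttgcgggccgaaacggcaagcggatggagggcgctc
Per3, chr4:151044616-151044915, minus strand: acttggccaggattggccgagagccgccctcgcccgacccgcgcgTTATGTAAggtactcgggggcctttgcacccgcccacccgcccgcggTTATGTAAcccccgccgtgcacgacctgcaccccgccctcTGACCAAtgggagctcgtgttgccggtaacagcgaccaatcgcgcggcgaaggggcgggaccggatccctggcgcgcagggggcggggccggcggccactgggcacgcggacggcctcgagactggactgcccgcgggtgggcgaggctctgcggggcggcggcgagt
Arntl, chr7:113207261-113207560, plus strand: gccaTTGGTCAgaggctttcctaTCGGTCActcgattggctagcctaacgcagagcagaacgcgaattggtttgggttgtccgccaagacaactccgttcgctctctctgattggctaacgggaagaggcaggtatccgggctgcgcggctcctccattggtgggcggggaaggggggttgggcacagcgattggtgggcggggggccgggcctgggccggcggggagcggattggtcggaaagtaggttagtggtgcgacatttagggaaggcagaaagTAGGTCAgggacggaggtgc
In Cry1 the E-box began 60 bases before the start site and the E′-box 79 bases before it. That E′-box lay on the strand opposite to the gene, so the printed strand reads AACGTG. Nr1d1 held 1 E′-box 28 bases before its start, also on the opposite strand, and Per1 held 1 E-box 166 bases before the start of this transcript. Per3 was the only member in the table with D-boxes, the site bound by DBP and its relatives TEF and HLF. They lay 205 and 158 bases before the start, with 1 ROR element at 118 bases on the opposite strand, printed as TGACCAA. Arntl held ROR elements 246 and 227 bases before and 31 bases after this start, and no E-box or D-box. Of 32851 promoters of the same length, 7.15% held an E-box, 4.68% an E′-box, 2.32% a D-box and 11% a ROR element. The table had 13 promoters for 9 of the members and no entry for Per2. The windows of Clock, Npas2, Nr1d2 and Dbp held no match to these letters, and none of the 13 held a cAMP response element (TGACGTCA, present in 1.79% of all promoters). A match describes the letters only, and binding was not measured.

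Total counts were between 20983455 and 28327765 per library. Foxa2 was read first as the check of the labels, and its counts were 442, 246 and 516 in FOXA2f/f replicates 1, 2 and 4 and 28, 19 and 35 in the FOXA2H-KO replicates. The fitted change was -3.85 on the log2 scale (SE 0.31, adjusted p = 0.0313, edgeR quasi-likelihood test, Benjamini-Hochberg). It was the only gene of the 14417 tested that passed both an adjusted p under 0.05 and a fold change of 2, which is 0.00694% of the genes. The 6 hepatocyte markers (Alb, Apoa1, Ttr, Hnf4a, Cps1 and Fgb) summed to between 1.02e+05 and 1.51e+05 CPM, and none of them had an unadjusted p under 0.05. Summed markers of other liver cells varied between libraries: 7 macrophage markers came to between 328 CPM (FOXA2f/f replicate 2) and 1461 CPM (FOXA2f/f replicate 4), and 7 endothelial markers to between 152 and 550 CPM in the same libraries. The 7 stellate cell markers came to between 674 CPM in FOXA2f/f replicate 2 and 1846 CPM in FOXA2f/f replicate 4. Neutrophil markers came to 60.5, 3.34 and 30.9 CPM in FOXA2f/f and to 5.44, 10.9 and 5.18 CPM in FOXA2H-KO, lymphocyte markers to between 19.0 and 80.7 CPM, and cholangiocyte markers to between 8.23 and 20.01 CPM. FOXA2f/f replicate 2 also stood apart for genes that rise after feeding. Fasn, the fatty acid synthase, was at 3706 CPM there and between 147 and 457 CPM in the other 5 libraries. CPM values are counts scaled to a common library size after edgeR's TMM correction for composition. Cells of another type and RNA per cell cannot be told apart in these bulk samples, and the part that the marker and feeding differences play in the clock values was not tested.

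All 10 clock genes passed the filter on low counts. Compared per transcript length, on the authors' FPKM scale, Nr1d2 was the most abundant, at 22.1 ± 2.85 FPKM (mean ± SD over all 6 libraries). It was followed by Dbp (8.62 ± 3.73), Per2 (7.97 ± 1.24), Nr1d1 (7.10 ± 3.92) and Per1 (6.54 ± 1.91), and among these 4 each neighbouring pair lay within its SD. Cry1 (4.26 ± 1.58) and Per3 (3.62 ± 0.749) came next and overlapped each other. Clock averaged 2.25 ± 0.566 FPKM and Arntl 1.39 ± 0.367 FPKM. Npas2, the paralog of Clock, was lowest at 0.0711 ± 0.0313 FPKM and had between 4 and 15 counts per library, so its values carry large counting error.

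The positive limb of the loop was led by Clock and Arntl. Arntl (chr7:113207465-113314126, plus strand, GRCm38) was at 2.83, 4.61 and 2.80 CPM in FOXA2f/f replicates 1, 2 and 4 and at 4.86, 4.21 and 4.86 CPM in the FOXA2H-KO replicates. FOXA2f/f replicates 1 and 4 were thus the lowest of the 6, and FOXA2f/f replicate 2 lay among the FOXA2H-KO libraries. The group difference was 0.45 on the log2 scale (SE 0.27, adjusted p = 0.964, edgeR). Clock (chr5:76209868-76304792, minus strand), whose protein is the acetyltransferase partner of ARNTL, was at 33.8, 52.5 and 40.4 CPM in FOXA2f/f and at 50.1, 53.5 and 68.3 CPM in FOXA2H-KO. FOXA2f/f replicate 2 again fell within the FOXA2H-KO range, and the difference of 0.44 (SE 0.20) did not pass the test (adjusted p = 0.941, edgeR). Npas2 (chr1:39193731-39363236, plus strand) was at 0.473, 0.219 and 0.477 CPM in FOXA2f/f and at 0.221, 0.200 and 0.509 CPM in FOXA2H-KO. Those values formed a high and a low set that each held libraries of both groups, and the log2 difference was -0.38 (SE 0.56).

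Cry1, a repressor of the ARNTL-CLOCK pair and the member with both kinds of E-box above, ranged widely. Cry1 (chr10:85131700-85185064, minus strand) was at 7.52, 18.3 and 8.20 CPM in FOXA2f/f replicates 1, 2 and 4 and at 9.23, 15.2 and 19.4 CPM in FOXA2H-KO replicates 1, 2 and 4. The lowest 3 values were those of FOXA2f/f replicates 1 and 4 and FOXA2H-KO replicate 1, so each group held both high and low libraries. Group means were 11.3 ± 6.05 and 14.6 ± 5.10 CPM (SD, n = 3 each), and the difference of 0.37 on the log2 scale (SE 0.40) did not pass the test (adjusted p = 0.983, edgeR).

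The Per genes, whose proteins join CRY in the repressor complex, differed from each other. Per1 (chr11:69095217-69109960, plus strand) was at 60.7, 31.2 and 62.8 CPM in FOXA2f/f and at 54.8, 44.2 and 66.0 CPM in FOXA2H-KO. FOXA2f/f replicate 2 was the lowest library, and the groups overlapped (log2 difference 0.09, SE 0.28). Per2 (chr1:91415982-91459324, minus strand) was at 41.1, 49.2 and 48.8 CPM against 48.5, 50.9 and 42.1 CPM. Its highest library exceeded its lowest by 1.24-fold only, and the log2 difference was 0.03 (SE 0.13).

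On the TMM-scaled CPM, Per3 was the only member whose groups did not overlap. Per3 (chr4:151003652-151044665, minus strand) was at 61.6, 53.5 and 47.3 CPM in FOXA2f/f and at 45.4, 39.7 and 30.3 CPM in FOXA2H-KO. Every FOXA2H-KO library was below every FOXA2f/f library, although the closest pair, 47.3 and 45.4 CPM, were nearly level. The means were 54.1 ± 7.14 and 38.4 ± 7.60 CPM (SD, n = 3 each), a log2 difference of -0.49 (SE 0.18). An exact two-sided permutation test gave p = 0.1, the smallest that 3 against 3 allows. In the fit across all genes the p was 0.0266 before adjustment and 0.86 after it (edgeR, Benjamini-Hochberg), so Per3 did not pass. That unadjusted p was above 0.05 once FOXA2f/f replicate 1, FOXA2H-KO replicate 2 or FOXA2H-KO replicate 4 was left out. The Per3 groups overlapped, and its unadjusted p was 0.122 and 0.116, with library size alone (edgeR) and on log2(FPKM + 1) (limma). Groups without overlap occurred in 10.5% of all genes tested, and an unadjusted p under 0.05 in 5.17%.

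The 2 REV-ERB genes showed the extremes of spread among the members. Nr1d1 (chr11:98767932-98775333, minus strand) was at 33.9, 12.8 and 38.3 CPM in FOXA2f/f replicates 1, 2 and 4 and at 33.3, 13.5 and 13.6 CPM in FOXA2H-KO replicates 1, 2 and 4. The values lay at about 2 levels, FOXA2f/f replicates 1 and 4 with FOXA2H-KO replicate 1 above and the other 3 libraries below. The gap between the levels was 1.28 on the log2 scale, or 81.7% of the whole range. Means of 28.3 ± 13.6 and 20.2 ± 11.4 CPM (SD, n = 3 each) differed by -0.49 on the log2 scale (SE 0.48, adjusted p = 0.983, edgeR). Nr1d2 (chr14:18204054-18239127, minus strand) was at 134, 124 and 129 CPM in FOXA2f/f and at 137, 126 and 122 CPM in FOXA2H-KO. Its highest library exceeded its lowest by 1.12-fold, and the log2 difference was -0.01 (SE 0.12), with a sign that turned when libraries were scaled by total count alone (0.11). The ratio of Nr1d1 to Nr1d2 CPM was accordingly 0.252, 0.103 and 0.297 in FOXA2f/f and 0.243, 0.107 and 0.112 in FOXA2H-KO.

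Dbp, the PAR-domain activator that passes the rhythm on to D-box genes of liver metabolism, had the widest range. Dbp (chr7:45705088-45710203, plus strand) was at 74.4, 23.4 and 47.3 CPM in FOXA2f/f and at 51.3, 35.8 and 26.0 CPM in FOXA2H-KO. The highest and the lowest library, FOXA2f/f replicates 1 and 2, belonged to the same group and differed by 3.18-fold. The log2 difference between groups was -0.36 (SE 0.41, adjusted p = 0.983, edgeR).

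**Figure D1:**
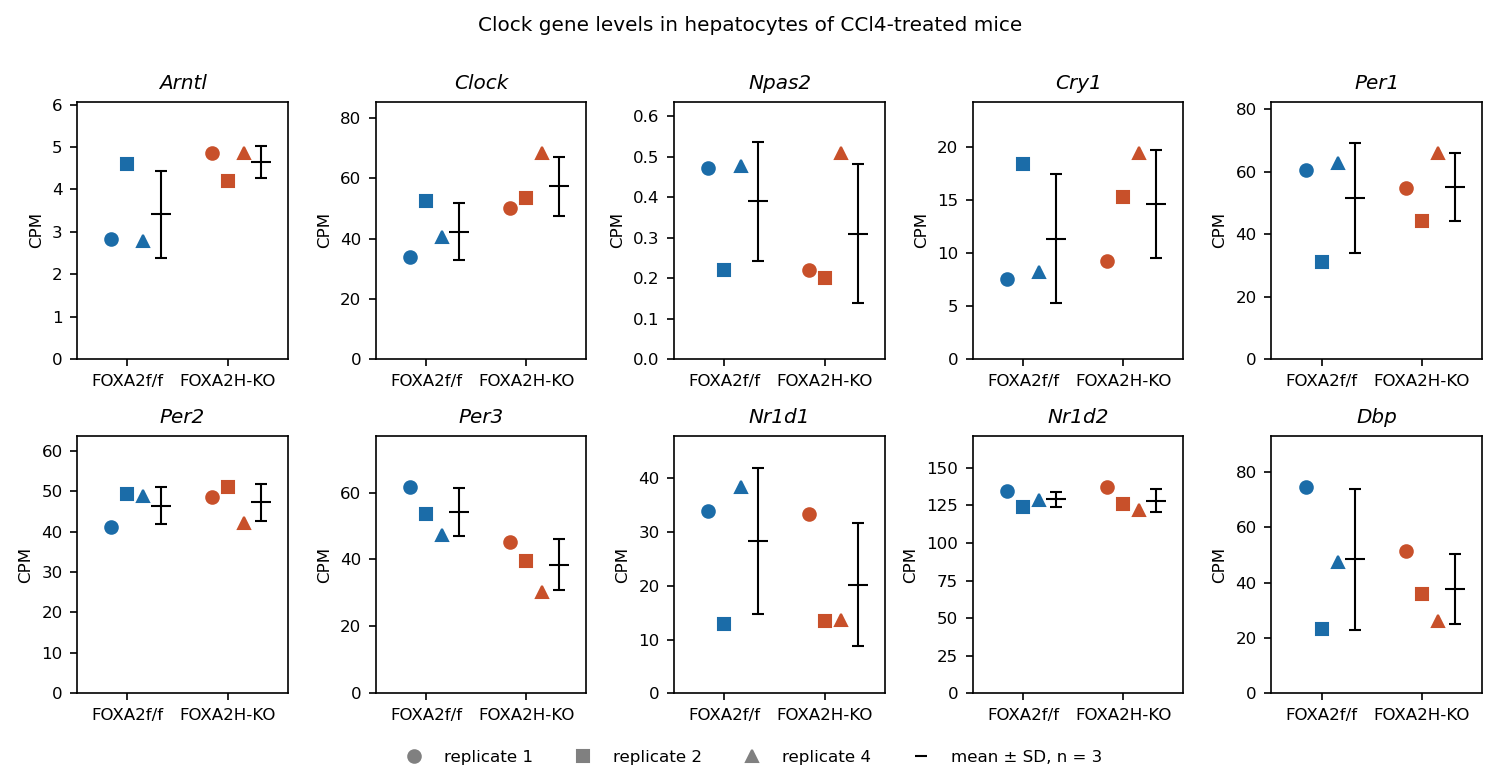
Level of each clock gene (vertical axis, CPM from 0) in FOXA2f/f and FOXA2H-KO hepatocytes, with 1 symbol per library (circle, replicate 1, square, replicate 2, triangle, replicate 4) and mean ± SD of 3 libraries in black. On this scale only the Per3 groups do not overlap, and Nr1d1 shows high and low libraries in both groups, from 12.8 to 38.3 CPM.

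Parts of Nr1d1 and Dbp are also exons of a neighbour on the opposite strand, and the library kit did not keep strand. Thra, the thyroid hormone receptor gene, shared 263 bases or 8.55% of the exonic length of Nr1d1, and was at 10.7, 6.80 and 11.2 CPM in FOXA2f/f and at 9.27, 8.10 and 6.61 CPM in FOXA2H-KO. Its 3 highest libraries were the 3 highest of Nr1d1. Sphk2 shared 539 bases, 18.0%, with Dbp and was nearly level, at 22.3, 22.0 and 23.2 CPM in FOXA2f/f and at 23.0, 27.99 and 24.7 CPM in FOXA2H-KO. Reads from the shared stretches cannot be assigned to one gene from these data.

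Libraries of the same group differed in the level of several clock genes. The SD of log2 CPM within groups was 0.80 for Nr1d1, 0.69 for Dbp, 0.63 for Cry1, 0.55 for Npas2 and 0.45 for Per1, against a median of 0.265 over all genes tested. Nr1d1 thus varied more between replicates than 93.5% of the genes, Dbp more than 88.7% and Cry1 more than 85.6%. Arntl (0.30), Clock (0.28) and Per3 (0.25) lay near the median, Per2 (0.14) at the 17.3rd percentile and Nr1d2 (0.074) at the 2.84th. A wide spread was not particular to the clock genes. The median percentile was 64.8 for the 10 members, 96.5 for the feeding genes, 89.9 for macrophage markers and 89.1 for stellate cell markers. It was 46.3 for the hepatocyte markers. For 7 of the 10 members the libraries of either group spanned more, on the log2 scale, than the distance between the group means, and Arntl, Clock and Per3 were the exceptions. The same count was not taken over all genes, so it does not set the members apart. The 7 include Per2 and Nr1d2, which hardly varied.

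**Figure D2:**
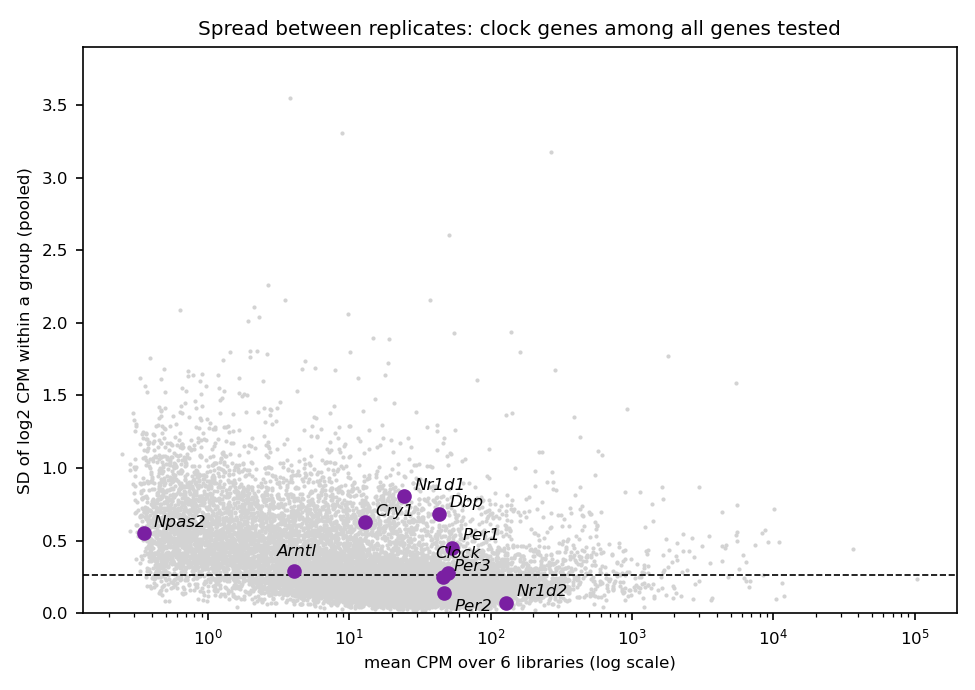
Within-group SD of log2 CPM (vertical axis) against mean CPM over 6 libraries (horizontal axis, log scale) for the 14417 genes tested (grey) and the 10 clock genes (purple), with the median of all genes as a dashed line at 0.265. Nr1d1 at 0.80 and Nr1d2 at 0.074 are the extremes among the members.

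Among the widely varying members, Nr1d1 and Dbp ran opposite to Cry1. The 3 libraries with the highest Nr1d1 (FOXA2f/f replicates 1 and 4, FOXA2H-KO replicate 1) had the 3 highest values of Dbp and the 3 lowest of Cry1. Their ratio of Nr1d1 to Cry1 CPM was 4.51, 4.67 and 3.61 in that order. The ratio was 0.701 in FOXA2f/f replicate 2, 0.887 in FOXA2H-KO replicate 2 and 0.704 in FOXA2H-KO replicate 4. Nr1d1 is the gene of a repressor of Cry1 and peaks about opposite to it, so this ratio compares members of opposite phase within a library and does not depend on how libraries are scaled. Clock was lowest in the same 3 libraries, and Nr1d2 was highest in them, though within a 1.12-fold range. Npas2, Per1, Arntl, Per2 and Per3 did not follow this order. Arntl was as high in FOXA2H-KO replicate 1 (4.86 CPM) as in FOXA2H-KO replicate 4 (4.86 CPM). Per2 was lowest in FOXA2f/f replicate 1 (41.1 CPM), and Per3 was second highest in FOXA2f/f replicate 2 (53.5 CPM). Npas2, which peaks about opposite to Nr1d1, was high in FOXA2f/f replicates 1 and 4 together with Nr1d1. Per1, which peaks in the later day or early night, was highest in FOXA2H-KO replicate 4, where Nr1d1 was low.

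For the antiphase score the members were split into day members (Nr1d1, Nr1d2, Dbp, Per1, Per2 and Per3) and night members (Arntl, Clock, Npas2 and Cry1). These names are shorthand, since the day members peak from the later day into the early night and peak times differ within a set. The score of a library was the mean log2 CPM of its day members minus that of its night members. It was 3.76, 2.65 and 3.56 in FOXA2f/f replicates 1, 2 and 4 and 3.43, 2.90 and 2.32 in FOXA2H-KO replicates 1, 2 and 4. In descending order the libraries were FOXA2f/f replicates 1 and 4, FOXA2H-KO replicates 1 and 2, FOXA2f/f replicate 2 and FOXA2H-KO replicate 4, so both groups stood on either side of the middle. The mean of FOXA2H-KO minus that of FOXA2f/f was -0.44, and this difference was -0.78 without FOXA2f/f replicate 2, -0.22 without FOXA2f/f replicate 1, -0.71 without FOXA2H-KO replicate 1 and -0.16 without FOXA2H-KO replicate 4. No p was computed for a score over the members.

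The likeness of libraries over the 10 members was taken as Pearson's r of log2 CPM after each gene's mean was removed. This r used the same values as the score and the ratio of Nr1d1 to Cry1. The members of widest range weigh most in it, so its sorting of the libraries is no separate evidence. Of 15 pairs of libraries, 6 had r above 0, from 0.368 to 0.845, and 9 had r below 0, from -0.926 to -0.295. The pairs above 0 were those among FOXA2f/f replicates 1 and 4 and FOXA2H-KO replicate 1, and those among FOXA2f/f replicate 2 and FOXA2H-KO replicates 2 and 4. Within FOXA2f/f, replicates 1 and 4 were alike (0.845), and replicate 2 was opposite to both (-0.801 and -0.848). Within FOXA2H-KO, replicate 1 had an r below 0 with replicate 4 (-0.698) and, more weakly, with replicate 2 (-0.295). Replicates 2 and 4 had an r above 0 with each other (0.433). Without Npas2, left out after its low counts were seen, the same 6 pairs were above 0 (0.515 to 0.837) and the 9 others below 0 (-0.928 to -0.650). These r values run across genes, which are not independent replicates, and removing each gene's mean lowers r on average.

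**Figure D3:**
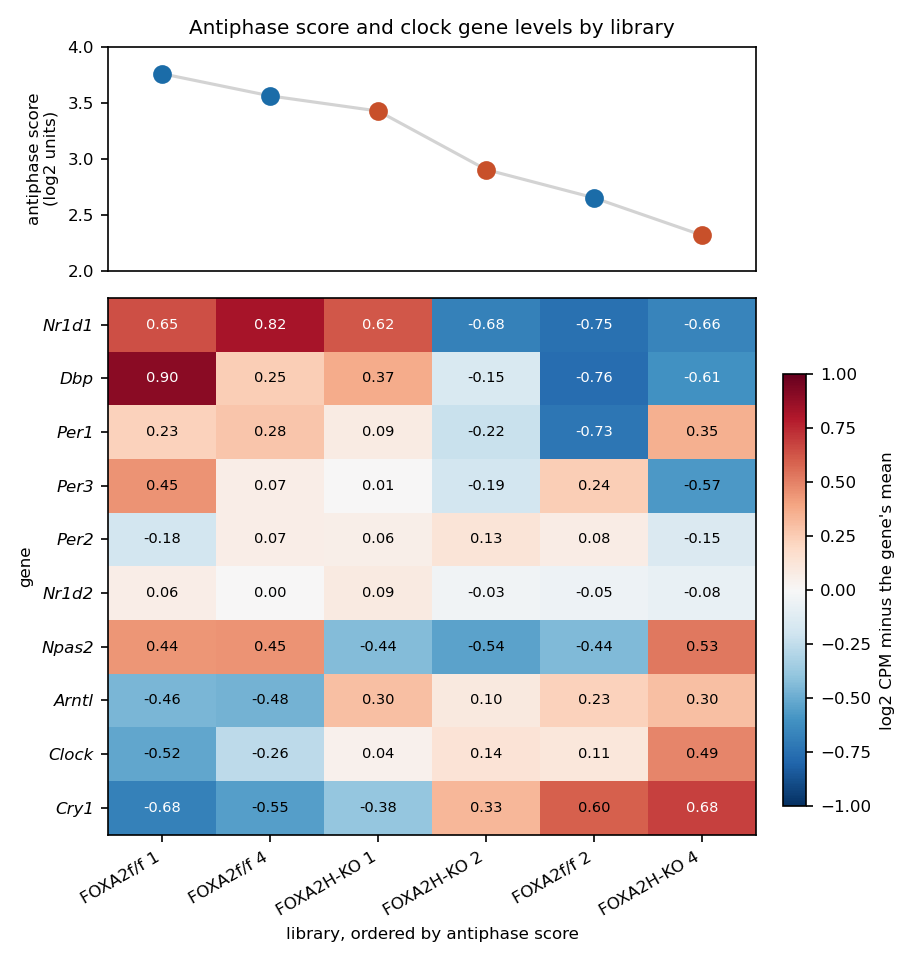
Upper panel, antiphase score in log2 units (vertical axis) of each library, ordered from high to low, with FOXA2f/f in blue and FOXA2H-KO in orange. Lower panel, log2 CPM of each member minus its mean over 6 libraries, in which Nr1d1 runs from 0.82 to -0.75 and Cry1 runs the opposite way, from -0.68 to 0.68.

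Taking FOXA2H-KO against FOXA2f/f over all members, none of the 10 passed the test. None was called by edgeR, by DESeq2 or by limma on log2(FPKM + 1), and an unadjusted p under 0.05 was found for Per3 alone by edgeR and by DESeq2. By limma it was found for Arntl and Clock (both higher in FOXA2H-KO) and not for Per3. These 2 were also the members whose groups did not overlap on FPKM and with library size alone, scales on which the median of all genes was 0.083 and 0.10. The share of all genes without overlap was not taken on those scales. The fitted difference was above 0 for 5 members and below 0 for 5, and their median of 0.01 was close to that of all genes tested (-0.01). The 1 member of 10 with groups that did not overlap is a share near that of all genes (10.5%), and the 1 of 10 with an unadjusted p under 0.05 stood beside 5.17% of all genes. The 4 night members had a median of 0.41, with Npas2 below 0, and the 6 day members a median of -0.18, with Per1 and Per2 above 0.

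These counts depended on FOXA2f/f replicate 2. Without it, 4 members had an unadjusted p under 0.05 (5.59% of all genes in that fit), namely Clock, Arntl and Cry1, which were higher in FOXA2H-KO, and Per3, which was lower. Groups did not overlap for 5 members, those 4 and Nr1d1 (lower in FOXA2H-KO, by a margin of 33.9 against 33.3 CPM), against 20.2% of all genes. The differences without that library were 0.72 for Arntl (SE 0.23), 0.63 for Clock (SE 0.17), 0.89 for Cry1 (SE 0.31), -0.50 for Per3 (SE 0.20) and -0.84 for Nr1d1 (SE 0.38). None passed after adjustment, the smallest adjusted p being 0.488 for Clock (edgeR). Neither count was higher when another library was left out instead. FOXA2f/f replicate 2 lay within the FOXA2H-KO range for Arntl, Clock and Cry1. Leaving it out therefore moves those groups apart and is no separate evidence of a group difference. That library was the only one of FOXA2f/f with low Nr1d1 and high Cry1, and it was also the library with the outlying feeding genes and the lowest macrophage, endothelial and stellate cell markers.

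**Figure D4:**
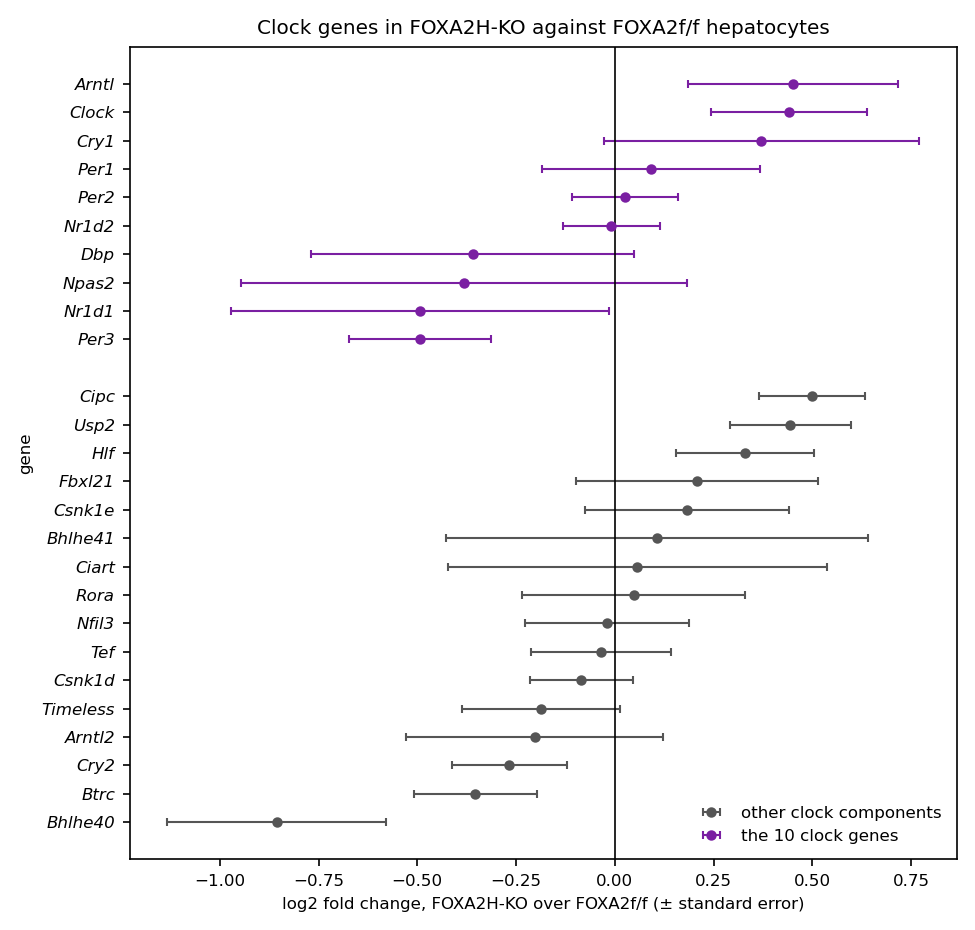
Log2 fold change of FOXA2H-KO over FOXA2f/f (horizontal axis) with its standard error for the 10 clock genes (purple) and the other clock components reported here (grey). The members lie on both sides of 0, from Per3 and Nr1d1 at -0.49 to Arntl at 0.45. Of the night members, Arntl, Clock and Cry1 lie above 0 and Npas2 below. Of the day members, Per3, Nr1d1 and Dbp lie lowest, and Per1 and Per2 lie above 0.

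Beyond the members, 18 of 19 listed clock components passed the filter (Rorb, at 0 to 3 counts, did not), and none was called. An unadjusted p under 0.05 was found for 3 of the 18 (5.17% of all genes), with Cipc and Usp2 higher and Bhlhe40 lower in FOXA2H-KO. Cipc, an inhibitor of CLOCK, was at 30.5, 34.0 and 37.4 CPM in FOXA2f/f and at 43.1, 51.8 and 49.2 CPM in FOXA2H-KO. The difference of 0.50 (SE 0.13) was larger than the spread of either group, without passing after adjustment (adjusted p = 0.679, edgeR). Usp2, a rhythmic deubiquitinase, was at 43.8, 47.5 and 59.6 CPM against 61.9, 72.3 and 71.1 CPM (log2 difference 0.44, SE 0.15, adjusted p = 0.836, edgeR). Bhlhe40 (DEC1), an E-box repressor, was at 251, 118 and 139 CPM in FOXA2f/f and at 103, 86.6 and 91.4 CPM in FOXA2H-KO (-0.86, SE 0.28, adjusted p = 0.812, edgeR). None of these genes split the libraries as Nr1d1 did, and Btrc, a ubiquitin ligase subunit that acts on PER, was the fourth of the 18 whose groups did not overlap (-0.35, SE 0.16), against 10.5% of all genes.

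Other repressors and relatives showed no group difference that passed. Cry2, the paralog of Cry1, was far steadier, from 21.6 to 32.7 CPM (-0.27, SE 0.15). Ciart, a repressor that peaks with the day members, had its lowest value in FOXA2f/f replicate 2 (4.88 CPM) and lay between 14.8 and 24.4 CPM in the other 5 libraries. The D-box activators Tef (152 to 226 CPM) and Hlf (33.8 to 60.1 CPM) and the D-box repressor Nfil3 (7.66 to 11.7 CPM) varied by less than Dbp did. Rora, a ROR activator that competes with REV-ERB, was between 59.1 and 138 CPM and highest in FOXA2f/f replicate 2. Bhlhe41 (0.971 to 3.53 CPM), Fbxl21 (2.29 to 4.52 CPM) and Arntl2 (1.049 to 1.804 CPM) were low. The kinases Csnk1d (55.9 to 70.9 CPM) and Csnk1e (6.31 to 11.3 CPM) and Timeless (14.0 to 22.0 CPM) overlapped between groups.

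Of 14 listed liver genes with a known daily rhythm, 13 were tested and none was called. Nampt, the NAD salvage enzyme and an E-box target of CLOCK, was higher in all 3 FOXA2H-KO libraries, at 145, 156 and 151 CPM against 122, 105 and 119 CPM (log2 difference 0.38, SE 0.13, adjusted p = 0.815, edgeR). Cyp2a5, a D-box target of DBP with a near-identical paralog that makes its counts uncertain, was at 34.4, 42.4 and 59.1 CPM in FOXA2f/f and at 20.3, 19.9 and 1.94 CPM in FOXA2H-KO (-1.68, SE 0.69, adjusted p = 0.941, edgeR). These were the only 2 of the 13 whose groups did not overlap, against 10.5% of all genes, and neither passed after adjustment. Insig2, a known REV-ERB target named here after its values were seen, was at 88.3, 213 and 78.9 CPM in FOXA2f/f and at 99.1, 150.02 and 139 CPM in FOXA2H-KO. Its 3 lowest libraries were the 3 lowest of Cry1 and the 3 highest of Nr1d1.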

How the data were processed

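Poly-A RNA of primary hepatocytes, isolated by collagenase perfusion and low-speed centrifugation, was sequenced as paired-end TruSeq libraries without strand on an Illumina HiSeq. For each of 6 libraries the authors deposited whole-number counts and FPKM for 34745 genes. The submitters' processing notes name CASAVA 1.8, TopHat2 2.1.0, HTSeq, edgeR and mm10, with settings and annotation release not given in the sources used here. The deposited FPKM carried no scaling between libraries other than total count. The same values repeated in a table of the whole series were not used again.

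Counts were fitted in R 4.3.3 with edgeR 4.0.16 (filterByExpr, TMM, quasi-likelihood F-test, groups only). Calls needed a fold change of 2 or more together with a p under 0.05 after Benjamini-Hochberg adjustment. Log2 CPM used a prior count of 2. For single genes an exact permutation test, two-sided, was added. Alternatives were DESeq2 1.42.0, limma 3.58.1 on log2(FPKM + 1) over genes of mean FPKM of at least 1, other scalings and filters, a replicate block and each library left out. Scripts were tested on simulated data. Same-numbered libraries did not deviate together (r = -0.07, 0.03 and -0.23), so numbers were not taken as pairs. Replicates were no duplicates (chi-square per degree of freedom 35.9 to 123).

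The members and lists were chosen with earlier results of these data known. Genes named were Foxa2, the members, the other clock components, the 3 smallest p of each other list, genes overlapping a member and the 5 most and least like the antiphase score. Some genes under this rule are not reported here. Correlations with Arntl were planned and are not given, since its values fell into separate sets. Positions are from GENCODE M21 (GRCm38), and promoters from RefSeq.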

Additional observations from a re-analysis of the deposited data

How the results depend on the processing

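Over 13 alternatives, 117 of 128 fold changes of the members kept their direction, 11 reversed and 0 were called. Npas2 could not be fitted with at least 10 counts in every library or on FPKM. Genes called over all genes, 1 in the reported fit, were 75 by DESeq2, 2 without a filter, and 0 with library size alone, with limma on FPKM and with the replicate block (no pairing was assumed), which changed no call of a member, and 0 to 6 with each library left out (6 without FOXA2f/f replicate 2). Members with an unadjusted p under 0.05 were 2 with upper quartile scaling and without a filter (Clock and Per3) and on FPKM (Arntl and Clock), and 0 to 4 with a library left out. Members without overlap were 2 with upper quartile scaling (Clock and Per3), library size alone and FPKM (Arntl and Clock), and 1 to 5 with a library left out. The shares over all genes were taken only in the reported fit (5.17% and 10.5%) and without FOXA2f/f replicate 2 (5.59% and 20.2%). For the other settings these counts therefore have no share beside them. Library size alone moved the median of all genes from -0.01 to 0.10. The members' median was then 0.13, as on FPKM (0.13), and -0.10 to 0.068 with a library left out. That of the other clock components was 0.11 with library size alone, 0.084 on FPKM and -0.054 to 0.060 with a library left out, which also gave 1 to 5 of them with an unadjusted p under 0.05. Nr1d2 reversed with upper quartile scaling (0.0046), library size alone (0.11) and FPKM (0.11). With a library left out, the ranges that crossed 0 were -0.059 to 0.035 for Nr1d2, -0.040 to 0.11 for Per2, -0.16 to 0.26 for Per1 and -0.69 to 0.10 for Dbp. The cause of these reversals was not tested. Depth limits Npas2 most, at 4 to 15 counts, and then Arntl, at 66 to 132 counts.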

Other observations

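Genes that respond to feeding and fasting were read beside the clock genes. Of 6 feeding genes, 5 had an unadjusted p under 0.05, all lower in FOXA2H-KO, with none passing after adjustment (edgeR), against 5.17% of all genes. Pnpla3, a lipid droplet protein, was at 3.05, 23.8 and 3.91 CPM in FOXA2f/f replicates 1, 2 and 4 and at 2.50, 1.00 and 0.555 CPM in FOXA2H-KO. Srebf1, the lipogenic transcription factor, was at 302, 591 and 242 CPM against 161, 208 and 104 CPM. FOXA2f/f replicate 2 was the highest library for both. The median of the 6 was -1.50, and -0.35 without that library. Of 8 fasting genes, 3 had an unadjusted p under 0.05, against 5.17% of all genes. G6pc, the last enzyme of glucose output, was lower in FOXA2H-KO (-1.20, SE 0.47), whereas Angptl4 (0.42, SE 0.18) and Pdk4 (1.11, SE 0.47) were higher, with adjusted p between 0.918 and 0.941 (edgeR). For G6pc, FOXA2f/f replicate 2 stood at 1089 CPM, against 326 and 438 CPM in FOXA2f/f replicates 1 and 4. The same library was the lowest for Pdk4 (8.77 CPM). The groups overlapped for G6pc and Pdk4 and did not for Angptl4.

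None of 8 immediate early genes had an unadjusted p under 0.05. Fos, which cells induce within minutes of a stimulus, was at 69.4, 7.95 and 69.5 CPM in FOXA2f/f and at 38.8, 39.5 and 25.3 CPM in FOXA2H-KO, with FOXA2f/f replicate 2 again the lowest. Among 5 glucocorticoid-induced genes Fkbp5 was at 73.6, 60.1 and 172 CPM in FOXA2f/f and at 149.9, 209.7 and 308 CPM in FOXA2H-KO (1.13, SE 0.43, adjusted p = 0.916, edgeR), and the other 4 had an unadjusted p above 0.05.

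The genes most like the antiphase score were sought among 10103 genes of mean CPM of at least 5, by Pearson's r of log2 CPM over the 6 libraries. An r of at least 0.95 in size was found for 18 genes with the sign of the score and for 24 with the opposite sign. Atp11a (0.976), Arhgap26 (0.974), 2700097O09Rik (0.974) and Gm37701 (0.972) were among those that followed the score most closely, and Atp11b (-0.998), Dpy19l1 (-0.996), Ptpn11 (-0.989), Ipo7 (-0.984) and Pik3c2a (-0.982) ran most closely opposite to it. Dpy19l1 spanned 55.1 to 109 CPM, the widest of these in fold. With 6 libraries and so many genes searched, these r values describe the libraries, and no test was run on them.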
